A study of Drosophila melanogaster with 18 samples.

Results

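The genes described here mark which neurotransmitter a fly neuron makes, loads into vesicles or takes back: VGlut for glutamate, VAChT for acetylcholine, Gad1 and VGAT for GABA, and ple, Ddc, Vmat, SerT and DAT for the biogenic amines. These 9 genes were chosen by name and matched by gene identifier to the head count table, in which 8 of them had a row among 15406 genes. The level of VAChT was not analysed here, only its 3′ UTR. Values of ChAT, which shares its locus, are given below and do not stand for VAChT. The 8 genes all passed the filter on low counts, which kept 9470 genes.

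Poly(A) RNA was sequenced from heads of Drosophila melanogaster 1 h after eclosion, in 3 libraries of wDah controls and 3 libraries of miR-210Δ mutants, 6 of the 18 samples of the series. wDah is the outbred white Dahomey wild-type stock. miR-210Δ flies are null for the microRNA miR-210 after a CRISPR/Cas9 deletion of its gene, and transgenic flies were backcrossed into the same stock where needed. Both groups carry the strain label wDah, and their labels name no driver or transgene. The fly protocol gives once-mated females for experiments in general, the head labels give no sex of their own, and the sources used here do not say how many independently made deletion lines or how many pooled heads each library stands for. The comparison asks which head transcripts change when miR-210 is missing.

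In the fly, glutamate is the transmitter of motor neurons and of many central neurons, acetylcholine is the main fast excitatory transmitter of the brain, and GABA the main inhibitory one. A neuron takes on its transmitter by making a synthesis enzyme and a vesicular transporter, and often a plasma membrane transporter that recovers the released transmitter. Amine genes have a second use in a newly eclosed fly, because the cuticle hardens and darkens through dopamine made by the same enzymes, ple and Ddc, in the epidermis. A miRNA acts by pairing its seed, the bases near its 5′ end, with sites that lie mostly in the 3′ untranslated region (3′ UTR) of a transcript.

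The mature miR-210-3p removed in the mutants is shown first, followed by the sites in the 3′ UTRs of the 9 genes that pair with bases 2 to 8 of this annotated form, the only such sites. The site that the study mutated in its reporter pairs with a seed that starts further along the miRNA. None of the 9 genes has a match to all 7 bases of that seed. The miRNA sequence is that of RefSeq on the dm6 build, X:18128270-18128292 on the plus strand, and the capitals mark bases 2 to 8. The sites are read from the same build in the sense of the transcript, with the matching 7 bases in capitals, and lie at 2L:2410071-2410077 (plus strand, VGlut) and 3L:6714820-6714826 (minus strand, ple).
miR-210-3p: cUUGUGCGugugacagcggcuau
VGlut 3′ UTR: aatataggCGCACAAtaccagat
ple 3′ UTR: tgacatacCGCACAAtccctcgt

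VGlut and ple were thus the 2 of 9 genes with the word CGCACAA, which 319 of 9011 tested genes with an annotated 3′ UTR carried (3.54%). The search covered the sense strand of spliced 3′ UTRs only. The shorter word GCACAA, which pairs with bases 2 to 7 and lies within CGCACAA, occurred 3 times in VGlut, 2 times in ple and once each in VAChT, Gad1 and Vmat, and was present in 15.46% of the tested genes. The word of that reporter site is ACGCACA. It pairs with bases 3 to 9 of the RefSeq form and was present in 0 of the 9 genes, against 4.94% of the tested genes. VGlut and ple thus hold a 7-base match under the annotated form and no 7-base match under the other. Their sites do contain CGCACA, a part of ACGCACA, and this shorter word was not searched for. The longest annotated 3′ UTR was 2964 bases in VGlut and 1614 in ple, 4370 in VAChT and 4936 in Vmat, and the median over tested genes was 319. A match of letters is a description of these windows, and no binding was measured.

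Before the genes themselves, some facts of the whole comparison bear on them. The libraries held 17992976 to 21315973 counts, and values are given below as counts per 1000000 (CPM) scaled with TMM factors. The mir-210 row held 0 counts in all 6 libraries, controls included, so the deletion could not be checked here. Of 9470 genes, 956 passed an adjusted p of 0.05 in edgeR's quasi-likelihood test, which is 10.1%, with 3.97% higher and 6.12% lower in miR-210Δ. The median log2 fold change over all genes was 0.00. One library, control replicate 3, was unlike its group: a chi-square of its counts against controls 1 and 2 came to 22.8 and 19.7 for each degree of freedom, where controls 1 and 2 gave 3.98 between them and pairs of mutants 2.49 to 4.25. It also held the most muscle RNA: the 16 muscle markers, of which 14 were tested, summed to 28949.9 to 42110.9 CPM in controls, highest in replicate 3, and to 30509.3 to 32715.7 CPM in mutants. Neuronal RNA was present in both groups, with 14 of 15 pan-neuronal markers measured. Their summed level was 7596 to 8153 CPM in wDah and 7379 to 7979 CPM in miR-210Δ. All 16 photoreceptor markers were lower in miR-210Δ, and their summed level was 31511 to 34650 CPM in wDah and 18964 to 19462 CPM in miR-210Δ.

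Among the transmitter identity genes, VGlut alone passed the test, and it was higher in miR-210Δ. That is 1 of 8 genes higher and 0 of 8 lower, beside 3.97% and 6.12% of all genes, so the share called was near the background of 10.1%. At an unadjusted p under 0.05, 1 of the 8 was higher and 2, ple and Vmat, were lower, beside 10.3% and 13% of all genes. DESeq2 called VGlut higher and Vmat lower, beside 2.76% of its tested genes higher and 4.57% lower, 7.33% in all. The 3 mutant libraries lay all above or all below the 3 controls in 2 of the 8 genes, beside 28.3% of all genes. The log2 fold changes of the 8 genes ran from -0.39 for ple to 0.24 for VGlut with a median of -0.05.

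**Figure D1:**
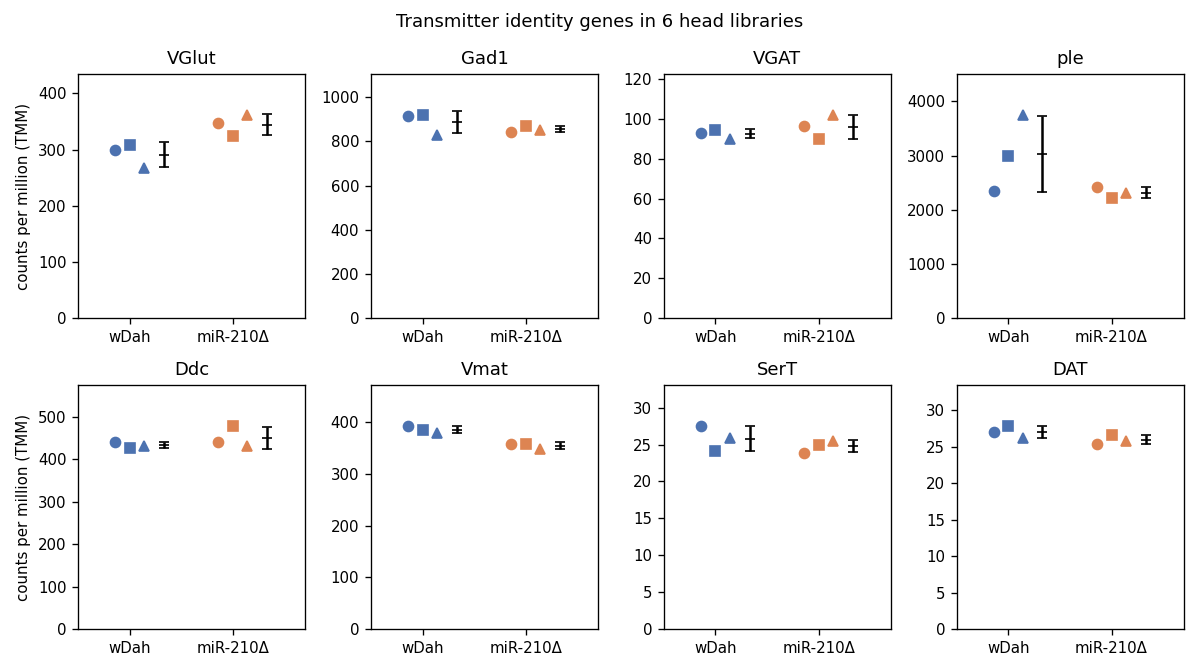
TMM-scaled CPM of the 8 transmitter identity genes in each of the 6 head libraries, 1 panel per gene with its own axis from 0. Circles, squares and triangles are replicates 1, 2 and 3 of wDah (blue) and miR-210Δ (orange), and the black bars give the mean and SD of 3 libraries. VGlut rises from 291 to 344 CPM without overlap, Vmat separates over a narrow range, and ple spreads from 2344 to 3746 CPM within wDah.

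VGlut encodes the vesicular glutamate transporter, which loads glutamate into synaptic vesicles and marks glutamatergic neurons. The gene (FBgn0031424) lies at 2L:2400295-2410662 on the plus strand. Its level was 299, 308 and 266 CPM in wDah replicates 1 to 3 and 346, 325 and 361 CPM in miR-210Δ replicates 1 to 3. Every mutant library lay above every control library, and the lowest control was replicate 3, the library with the most muscle RNA, without which the log2 fold change was 0.18 (adjusted p 0.0102, edgeR). The mean rose by 18.3%, from 291 ± 21.8 to 344 ± 18.4 CPM (SD, n = 3 each), a log2 fold change of 0.24 ± 0.06 (SE) with a 95% interval of 0.11 to 0.37 and an adjusted p of 0.0227 in edgeR. DESeq2 gave an adjusted p of 0.00264. The fold change kept its sign under all 15 alternatives, from 0.18 to 0.30, and the call was lost without miR-210Δ replicate 1 (adjusted p 0.0965, edgeR) and without miR-210Δ replicate 3 (0.107). In whole heads, more cells of a type and more RNA per cell cannot be told apart, here and for every gene below.

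VGlut shares 39 bases of exon, 0.682% of its exon length, with CG18641 on the opposite strand. CG18641 stood at 10.2, 9.76 and 9.44 CPM in wDah and at 14.1, 12.9 and 12.7 CPM in miR-210Δ, and its log2 fold change was 0.43 (adjusted p 0.00705, edgeR). No source used here states whether the counting used strand, and reads from the shared bases may then have gone to either gene. CG18641 is low beside VGlut, at 9.81 against 291 CPM in controls. Within 50 kb of VGlut, 14 genes were tested and 5 were called, beside 10.1% of all genes. They were eys, CG3609, CG18641, Axud1 and Eogt, none by a log2 fold change of 1 or more.

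Relative to the other fast transmitters of the same library, VGlut was also higher in miR-210Δ. The log2 ratio of VGlut to Gad1 counts, which needs no scaling between libraries, was -1.61, -1.58 and -1.64 in wDah and -1.28, -1.42 and -1.24 in miR-210Δ, a difference of 0.29 without overlap. Its log2 ratio to ChAT was -0.98, -0.98 and -1.03 in wDah and -0.74, -0.82 and -0.79 in miR-210Δ, a difference of 0.22 without overlap. The ratio of Gad1 to ChAT overlapped between groups, with a difference of -0.08. An exact permutation test of 3 libraries against 3 cannot go under p = 0.1 two-sided, so these ratios are given as descriptions. The 3 ratios were chosen after the values of the genes were known.

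**Figure D2:**
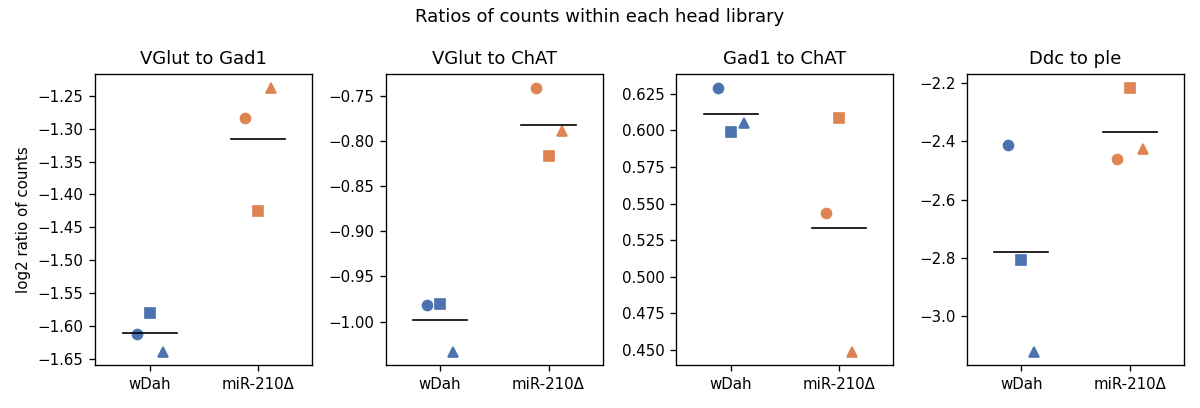
Log2 ratio of raw counts of 2 genes within each head library, for VGlut to Gad1, VGlut to ChAT, Gad1 to ChAT and Ddc to ple, each panel with its own axis that does not start at 0. Circles, squares and triangles are replicates 1, 2 and 3 and the lines are group means of 3 libraries. Both VGlut ratios separate the genotypes, by 0.29 and 0.22, while the other panels overlap.

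The genes of glutamate signalling did not move as one group. Of 21 symbols listed, VGlut included, 15 genes were tested. The symbols KaiR1D and Grik name the same gene, which was counted once. Of the 15, 1 was higher and 2 were lower, beside 3.97% and 6.12% of all genes, with a median log2 fold change of 0.05. The one that rose was VGlut itself. Eaat1, the glial transporter that clears glutamate from the synapse, fell from 848 ± 24.5 to 729 ± 26.7 CPM (SD, n = 3 each), a log2 fold change of -0.22 (adjusted p 0.00756, edgeR). Its values of 848, 873 and 824 CPM in wDah lay above the 735, 700 and 752 CPM of miR-210Δ, while the summed level of all 10 measured glial markers, of which Eaat1 is one, was 5169 to 5388 CPM in wDah and 5174 to 5222 CPM in miR-210Δ. Ekar, an ionotropic glutamate receptor of the kainate family with a known role in fly photoreceptors, stood at 41.3, 43.7 and 38.5 CPM in wDah and at 27.7, 28.1 and 30.1 CPM in miR-210Δ, the largest change of the list (log2 fold change -0.53, adjusted p 0.000241, edgeR). It fell beside the photoreceptor markers given above, and their part in its fall was not tested. Eaat2, listed here with Eaat1, had means of 375 and 406 CPM without overlap and missed the threshold (adjusted p 0.0755, edgeR), with 0.0301 in DESeq2. Receptor subunits such as Nmdar1 (log2 fold change 0.11, adjusted p 0.208, edgeR) did not pass.

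VAChT encodes the vesicular acetylcholine transporter and lies within the ChAT locus, at 3R:18705501-18718916 on the plus strand, inside the span of ChAT at 3R:18705501-18732344. The annotations share 606 bases of exon on the same strand, 15.1% of the ChAT exons and 8.54% of those of VAChT. ChAT, choline acetyltransferase, which makes acetylcholine, was at 590, 607 and 545 CPM in wDah and at 579, 572 and 624 CPM in miR-210Δ. The groups overlapped and the log2 fold change was 0.03 ± 0.05 (SE) with a 95% interval of -0.09 to 0.14 (adjusted p 0.812, edgeR), an estimate for the row labelled ChAT and not for VAChT.

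Of 17 genes of acetylcholine signalling, 15 were tested, with a median log2 fold change of 0.03. Of these, 1 was higher and 0 were lower, beside 3.97% and 6.12% of all genes. nAChRalpha7, a subunit of the nicotinic receptor that acts in the giant fibre escape circuit, rose from 208, 205 and 188 CPM in wDah to 240, 238 and 255 CPM in miR-210Δ (log2 fold change 0.29, adjusted p 0.00222, edgeR). The choline transporter ChT stood at 189 and 189 CPM in the 2 groups, and Ace, the acetylcholinesterase that ends the signal, at 359 and 359 CPM. mAChR-A, the muscarinic receptor, had all 3 mutant libraries above the controls, with means of 62.3 and 69.9 CPM, and did not pass (adjusted p 0.0816, edgeR).

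For GABA, neither identity gene passed. Gad1 encodes glutamic acid decarboxylase, which makes GABA from glutamate, and lies at 3L:4074077-4088744 on the minus strand. It measured 913, 920 and 829 CPM in wDah and 844, 872 and 852 CPM in miR-210Δ. The mutants lay within the range of the controls, which was set at its low end by control replicate 3. The log2 fold change was -0.05 ± 0.05 (SE), with a 95% interval of -0.16 to 0.05 (adjusted p 0.576, edgeR). Without control replicate 3 it was -0.10 (adjusted p 0.0586, edgeR), and all 3 mutants then lay below both controls. Its sign was negative after TMM scaling and turned to 0.01 with library totals and to 0.00 with scaling to pan-neuronal markers.

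VGAT, the vesicular GABA transporter, lies at 2R:14198478-14201249 on the minus strand. Controls gave 93.1, 94.3 and 89.8 CPM and mutants 96.4, 89.9 and 102 CPM. The groups overlapped, and the log2 fold change was 0.06 ± 0.05 (SE), with a 95% interval of -0.06 to 0.17 (adjusted p 0.573, edgeR). The log2 ratio of VGAT to Gad1 differed by 0.10 between groups and overlapped.

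No other gene of the GABA list passed either. All 13 listed genes, Gad1 and VGAT included, were tested, and edgeR and DESeq2 each called 0, while 1 gene, Ssadh, was higher at an unadjusted p under 0.05, as were 10.3% of all genes. Ssadh, succinic semialdehyde dehydrogenase, which breaks GABA down, stood at 88.7 ± 1.94 CPM in wDah and 97.6 ± 2.02 CPM in miR-210Δ (SD, n = 3 each; adjusted p 0.0515, edgeR). The membrane GABA transporter Gat had means of 537 and 543 CPM, and the receptor subunit Rdl, a GABA-gated chloride channel, 350 and 357 CPM. The list's median log2 fold change was 0.06.

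Among the 5 amine identity genes, ple showed the largest difference and the largest spread. It encodes tyrosine hydroxylase, the first and rate-limiting step of dopamine synthesis, and lies at 3L:6713356-6719525 on the minus strand. Its level was 2344, 2988 and 3746 CPM in wDah replicates 1 to 3 and 2418, 2220 and 2307 CPM in miR-210Δ. The mutants lay close together, and control replicate 1 sat among them, so that the groups overlapped. The mean was 3026 ± 702 CPM in wDah and 2315 ± 99.2 CPM in miR-210Δ (SD, n = 3 each), a log2 fold change of -0.39 ± 0.13 (SE), with a 95% interval of -0.67 to -0.11. The adjusted p was 0.0871 in edgeR and 0.325 in DESeq2.

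The spread of ple within wDah was unusual. Its coefficient of variation was 23.2% in controls against 4.29% in mutants, and its control SD on the log2 scale exceeded that of 92.5% of tested genes. The order of the controls was also that of the muscle markers, which summed to 28949.9, 31265.8 and 42110.9 CPM in replicates 1 to 3. The sum of the 15 tanning genes other than ple, at 7180, 7649 and 7752 CPM, had that order too, but its genes did not all follow it. Some rose from replicate 1 to 3, such as e (2154, 2606 and 2783 CPM) and b (376, 411 and 507 CPM). Others ran the opposite way, such as Pu (2730, 2680 and 2470 CPM) and amd (35.4, 34.2 and 30.3 CPM). Fat body markers, at 6835, 6241 and 6349 CPM, and hemocyte markers, at 2528, 2423 and 2594 CPM, did not follow that order in the controls. In mutant replicates 1 to 3 the order of ple was not that of the muscle sum, at 30830.8, 30509.3 and 32715.7 CPM. Nor was it that of the tanning sum without ple, at 6322, 6379 and 6287 CPM. The part of any of these cell types in the spread of ple was not tested. Without control replicate 3 the log2 fold change was -0.21 (adjusted p 0.0483, edgeR) and without control replicate 1 it was -0.54 (adjusted p 0.00185, edgeR). The sign was negative under all 15 alternatives, and these were the 2 in which ple was called.

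Ddc encodes dopa decarboxylase, which turns the product of ple into dopamine and also makes serotonin. It lies at 2L:19116483-19120306 on the minus strand. Its level was 440, 427 and 430 CPM in wDah and 440, 478 and 430 CPM in miR-210Δ. The control CV of 1.61% set Ddc apart from ple in the same libraries, and 1 mutant, replicate 2, lay above the rest. The log2 fold change was 0.06 ± 0.05 (SE), with a 95% interval of -0.05 to 0.16 (adjusted p 0.531, edgeR). The log2 ratio of Ddc to ple was -2.41, -2.81 and -3.12 in wDah and -2.46, -2.21 and -2.42 in miR-210Δ, which overlapped through control replicate 1. Ddc shares 88 bases of exon, 3.15% of its length, with CG10561 on the opposite strand, where the log2 fold change was -0.18 (adjusted p 0.0519, edgeR).

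Vmat, the vesicular monoamine transporter that fills vesicles with dopamine, serotonin, octopamine and histamine, lies at 2R:13513132-13534251 on the minus strand. It gave 392, 384 and 379 CPM in wDah and 357, 358 and 347 CPM in miR-210Δ. All 3 mutants lay below all 3 controls, within narrow groups. The mean was 385 ± 6.70 CPM in wDah and 354 ± 6.03 CPM in miR-210Δ (SD, n = 3 each), a difference of -8.03% and a log2 fold change of -0.12 ± 0.04 (SE) with a 95% interval of -0.20 to -0.04. edgeR gave an adjusted p of 0.0602 and DESeq2 one of 0.0266. Without control replicate 3 the adjusted p was 0.0161 in edgeR. When libraries were scaled to the summed pan-neuronal markers the log2 fold change was -0.07 (adjusted p 0.527, edgeR).

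Vmat overlaps CG13330 on the opposite strand over 2129 bases, 26.2% of its exon length. CG13330 had 3, 0 and 12 counts in wDah and 1, 1 and 81 in miR-210Δ, few beside the 6342 to 8037 counts of Vmat, and it was not tested.

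SerT and DAT are the plasma membrane transporters that take serotonin and dopamine back into the neurons that released them. SerT, at 2R:24404595-24411074 on the minus strand, stood at 27.5, 24.1 and 25.8 CPM in wDah and 23.9, 25.0 and 25.5 CPM in miR-210Δ. The groups overlapped, and its log2 fold change was -0.06 ± 0.07 (SE), with a 95% interval of -0.20 to 0.09 (adjusted p 0.667, edgeR). DAT, at 2R:16558567-16565238 on the minus strand, stood at 27.0, 27.8 and 26.2 CPM in wDah and 25.4, 26.6 and 25.8 CPM in miR-210Δ, also with overlap. Its log2 fold change was -0.06 ± 0.06 (SE), with a 95% interval of -0.18 to 0.06 (adjusted p 0.589, edgeR). Both signs turned with library totals alone, to 0.00 each. The log2 ratio of DAT to SerT, also chosen after the values were known, differed by 0.00 between groups. The ratios of DAT and of SerT to Vmat differed by 0.06 each with overlap.

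Of the other genes of amine synthesis, transport and breakdown, 16 were listed and 15 tested. Of these, 4 fell and 0 rose, beside 6.12% and 3.97% of all genes, with a median log2 fold change of 0.04. With the identity genes the list had 20 tested genes and a median of -0.06. Pu, GTP cyclohydrolase, which starts the synthesis of the pterin cofactor of tyrosine hydroxylase and also of eye pteridines, fell from 2730, 2680 and 2470 CPM in wDah to 2065, 2141 and 2091 CPM in miR-210Δ (log2 fold change -0.32, adjusted p 0.00105, edgeR). e (ebony), which joins β-alanine to dopamine and histamine, fell from 2154, 2606 and 2783 CPM to 1950, 1889 and 1916 CPM (log2 fold change -0.39, adjusted p 0.00788, edgeR). In controls e was lowest in replicate 1 and highest in replicate 3, the order seen for ple. t (tan), which reverses the reaction of ebony and in photoreceptors regenerates histamine, fell from 382, 392 and 362 CPM to 302, 300 and 302 CPM (log2 fold change -0.33, adjusted p 0.000299, edgeR).

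The fourth, Oct-TyrR, a receptor for octopamine and tyramine, fell by 0.20 on the log2 scale, from 30.9 to 26.8 CPM (adjusted p 0.0342 in edgeR and 0.26 in DESeq2). Pu, e and t moved beside the photoreceptor markers, which were lower in all 16 cases, and the part of the photoreceptors in their fall was not tested.

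Of the other enzymes of amine synthesis, Trhn, Tdc2, Tbh and Hn did not pass. Trhn, the neuronal tryptophan hydroxylase of serotonin synthesis, had means of 15.6 and 16.5 CPM (log2 fold change 0.08, adjusted p 0.576, edgeR). Tdc2, the neuronal tyrosine decarboxylase of tyramine and octopamine synthesis, had 11.6 and 12.0 CPM, and Tbh, which turns tyramine into octopamine, 35.1 and 33.3 CPM. Hn (Henna), phenylalanine hydroxylase, which supplies tyrosine, had 179 and 192 CPM (adjusted p 0.29, edgeR). For these genes the 95% intervals of the log2 fold change reached from -0.24 for Tbh to 0.29 for Tdc2.

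**Figure D3:**
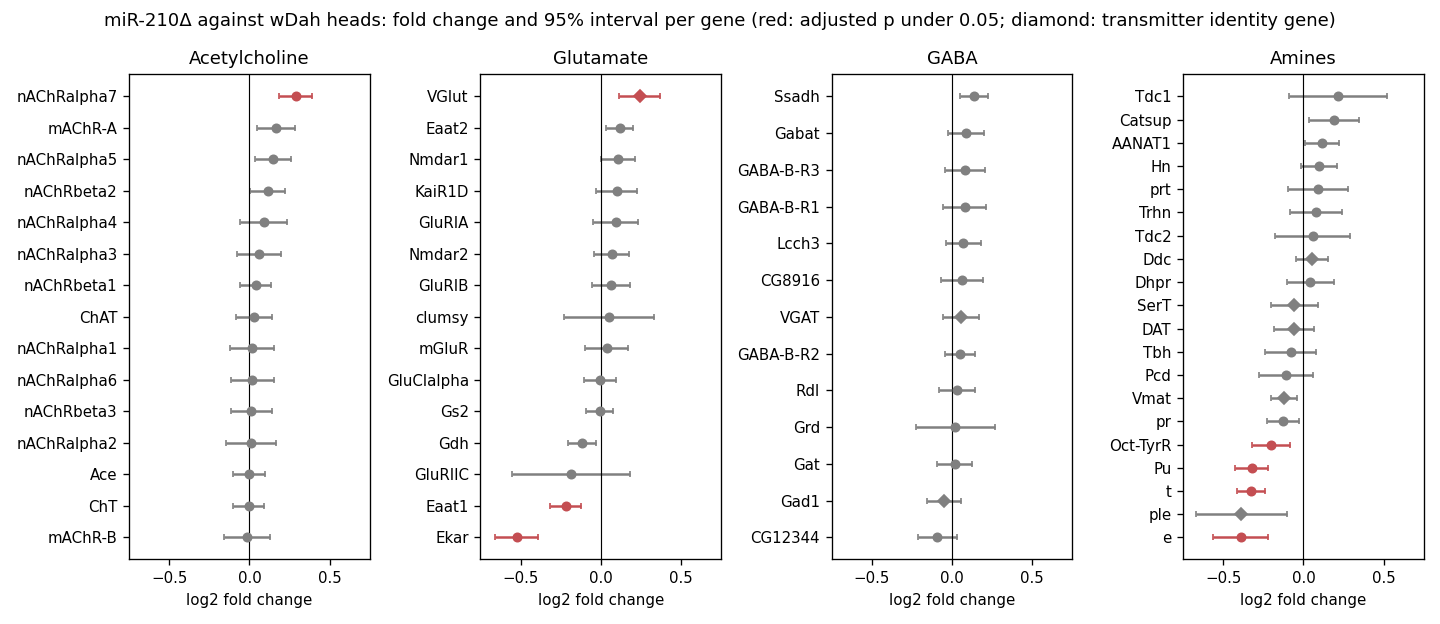
Log2 fold change of miR-210Δ against wDah heads with its 95% interval from edgeR, for the tested genes of 4 transmitter pathways, ordered within each panel. Diamonds are transmitter identity genes, circles are the other genes of the list, and red marks an adjusted p under 0.05. Of 63 genes, 2 are called higher (VGlut and nAChRalpha7) and 6 lower, beside 3.97% and 6.12% of all genes. No GABA gene is called.

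Because ple and Ddc also serve the cuticle, the genes of tanning were described beside them. Of 16 tested, 1 was higher and 4 were lower, beside 3.97% and 6.12% of all genes, with a median log2 fold change of -0.07. The 4 lower were Pu, e, t and y, and the higher one was amd, a relative of Ddc that acts in the cuticle, at 33.3 and 42.9 CPM (log2 fold change 0.37, adjusted p 0.00413, edgeR). y (yellow) is a low gene here, with means of 7.25 and 5.19 CPM, and was called by edgeR (adjusted p 0.0453) but not by DESeq2 (0.207). b (black), which makes the β-alanine that ebony uses, was highest in the control where ple was highest, at 376, 411 and 507 CPM in replicates 1 to 3, and stood at 388, 395 and 390 CPM in mutants (adjusted p 0.377, edgeR). stw (straw), a laccase listed here with tanning, had means of 400 and 406 CPM (adjusted p 0.839, edgeR). The list shares ple, Ddc, Pu, e, t and AANAT1 with the amine list, so the 2 counts are not independent.

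Over the 4 pathway lists together, 72 listed symbols gave 63 tested genes, with KaiR1D and Grik as the same gene. Of the 63, 8 were called, 12.7%, against 10.1% of all genes. Without the identity genes 55 were tested, of which 1 was higher and 6 were lower, beside 3.97% and 6.12% of all genes. Without control replicate 3, 14 of the 63 were called, 4 higher and 10 lower, where the share over all genes was 13.4%, with 5.48% higher and 7.91% lower. With library totals in place of TMM factors 14 were called, 9 higher and 5 lower, where the share over all genes was 12.7%, with 8.37% higher and 4.3% lower.

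Levels of different genes were compared per kilobase of annotated exon. ple stood highest, at 795 ± 184 CPM per kb in wDah and 608 ± 26.1 in miR-210Δ (SD, n = 3 each), followed by Gad1 at 241 and 232 and Ddc at 155 and 161 CPM per kb. ChAT, for scale, was at 145 and 148 CPM per kb. VGlut (50.9 and 60.2), Vmat (47.4 and 43.6) and VGAT (34.2 and 35.6 CPM per kb) formed a middle group, and the amine reuptake transporters DAT (8.89 and 8.53) and SerT (6.93 and 6.66 CPM per kb) were lowest.

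Among the 8 genes, neighbours in this order were separated beyond the range of the 3 libraries, except VGlut and Vmat in wDah. Their levels there ran from 46.6 to 53.8 and from 46.6 to 48.2 CPM per kb. ChAT overlapped Ddc in miR-210Δ, at 143 to 156 against 154 to 171 CPM per kb. In miR-210Δ VGlut, at 56.8 to 63.2 CPM per kb, lay above Vmat, at 42.7 to 44.0. With the longest transcript or the coding length as the divisor, 6 of the 8 genes kept their rank in wDah and VGlut and Vmat swapped. Per kilobase of exon the order of the 8 genes was the same in both genotypes, and with either other length VGlut and Vmat changed places between wDah and miR-210Δ.

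**Figure D4:**
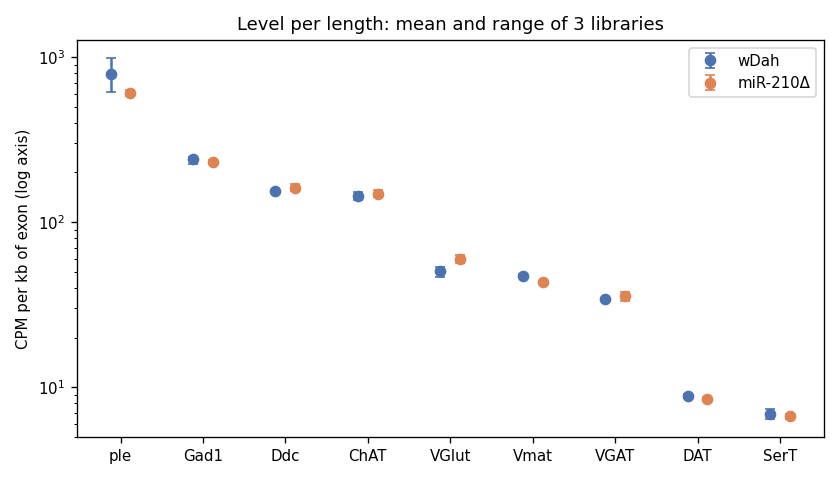
TMM-scaled CPM per kilobase of annotated exon for the 8 transmitter identity genes and ChAT, on a log axis, with points at the mean and bars from the lowest to the highest of 3 libraries (wDah blue, miR-210Δ orange). Levels fall from 795 for ple to 6.93 for SerT in wDah, and the order of the 8 genes by this length is the same in both genotypes.

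Each gene was finally set beside the genes most like it across the 6 libraries, by Pearson's r of log2 CPM, a description over 6 points that share the genotype contrast and the scaling factors. Nearest to VGlut were Frq1 (r = 0.997), CG11275 (0.996) and Appl (0.992), and 96 genes had an r over 0.95. For ple they were CG7778 (0.998), gfzf (0.996) and CG5087 (0.995), with 65 genes over 0.95. For Vmat they were Rcd5 (0.997), Atg9 (0.997) and CG4825 (0.994), with 182 genes over 0.95. Genes with a flat pattern had fewer close matches, from 11 for SerT, led by Dscam1, to 28 for Gad1, led by Dysb, with sm nearest to VGAT, ecd to Ddc and P32 to DAT.

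**Figure D5:**
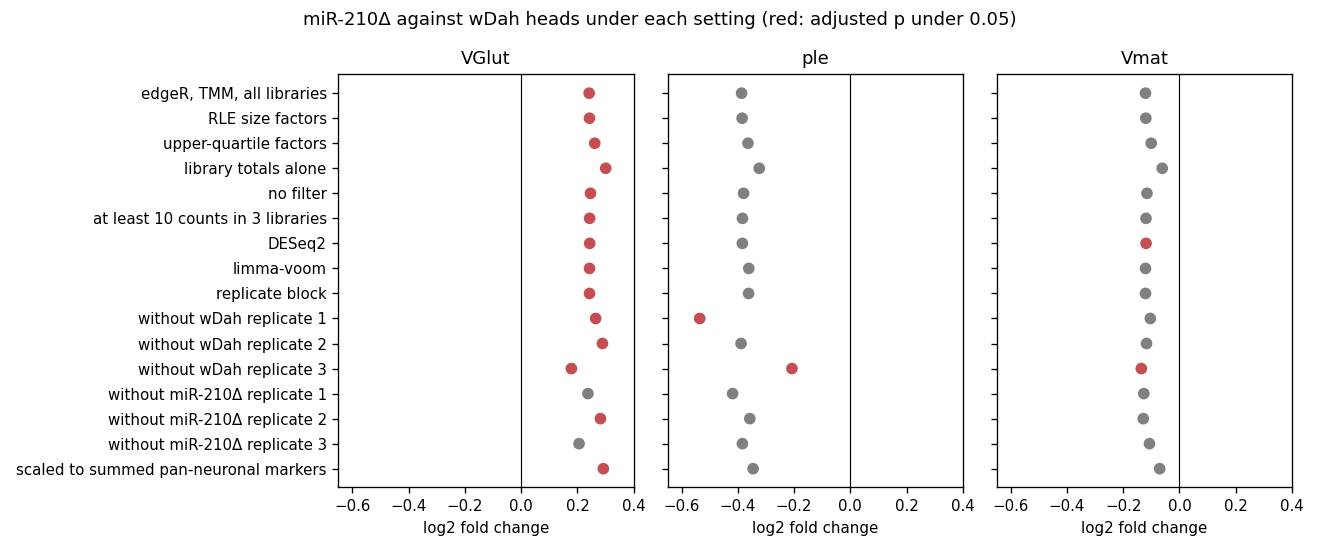
Log2 fold change of VGlut, ple and Vmat in miR-210Δ against wDah heads under edgeR with all 6 libraries and under each of 15 alternatives, with red points at an adjusted p under 0.05. VGlut stays between 0.18 and 0.30 and is called in 13 alternatives, ple runs from -0.54 to -0.21 and Vmat from -0.14 to -0.06, each called in 2.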

How the data were processed

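Head mRNA libraries of 3 wDah and 3 miR-210Δ samples were analysed, grouped by the titles in their labels. The deposited values are raw counts of reads for every gene. To obtain them the authors used Trim Galore 0.3.7 for quality trimming, TopHat2 for alignment to dm6 and SAMtools to discard multi-mapped reads. Which program assigned reads to genes, with which annotation and with what use of strand, is not given in the sources used here. Gene symbols came from the authors' deposited comparison table, whose other columns (mean normalized count, log2 fold change, SE, Wald statistic and p-values from DESeq2) were not used. The 12 small RNA libraries were not used here.

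Of 15406 identifiers, 12963 took a symbol from that table and 2426 from the reference, 17 had none, and 15186 were in the dm6 annotation. Counts were tested in R 4.3.3 with edgeR 4.0.16 (filterByExpr, TMM factors, quasi-likelihood test, Benjamini-Hochberg adjustment over 9470 genes, threshold 0.05), with limma 3.58.1 and DESeq2 1.42.0 as alternatives. The libraries held 17992976 to 21315973 counts, and replicates varied by 5.54% (common dispersion 0.00307). CPM were TMM-scaled, and log2 CPM for correlations used a prior count of 2. The procedure was tested on simulated counts in which every gene had the same dispersion. There it called 38% of changes of 0.25 on the log2 scale and 94% of those of 0.5. Figures were drawn with Python 3.11.15 and matplotlib 3.10.9.

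The genes and lists were chosen with earlier results of these data known. Named were all 9 identity genes, up to 4 called genes of each list by adjusted p, fixed partner genes, and the 3 genes nearest in pattern to each identity gene. Other genes (ChT, mAChR-A, Eaat2, Nmdar1, Ssadh, elav, the overlapping genes and the genes near VGlut) were named after their values were seen. Alternatives were other size factors, filters and tools, leaving out single libraries, a replicate block, other gene lengths, and, added after seeing the data, scaling to summed pan-neuronal markers. Nothing in the sources says that the libraries came from separate cultures, so p-values reflect only how these samples vary, which may be technical.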

Additional observations from a re-analysis of the deposited data

How the results depend on the processing

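Over 120 recomputed fold changes of the 8 identity genes, 110 kept their direction and side of the threshold. The signs that turned were all near 0: Gad1 was 0.01 (0.00734) with library totals and 0.000316 with pan-neuronal scaling, and with library totals SerT was 0.00212 and DAT 0.000367. Identity genes called numbered 2 with DESeq2 (VGlut and Vmat) and 0 to 3 with 1 library left out, and the genes called over all tested were then 594 to 1278. Pathway genes called numbered 14 with library totals and 6 to 14 with 1 library left out. Library totals gave 793 higher and 407 lower genes of 1200 called, against 376 and 580 of 956 with TMM, and upper-quartile factors gave 468 and 501, while the median log2 fold change of all genes shifted to 0.06 with library totals and 0.05 with pan-neuronal scaling. Equal replicate numbers did not pair the samples: their deviations correlated at -0.08, 0.07 and 0.10. With a replicate block, 855 genes, 7 pathway genes and 1 identity gene, VGlut (adjusted p 0.031, edgeR), were called. With the longest transcript or the coding length, 6 of 8 identity genes kept their rank by level. The median SE over all genes was 0.07 on the log2 scale, and the lowest genes here, SerT and DAT, had an SE of 0.07 and 0.06.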

Other observations

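Genes within 50 kb of an identity gene included called ones at every locus, where 10.1% of all genes were called. They were 5 of 18 tested near Gad1, 2 of 21 near VGAT, 1 of 7 near ple and 3 of 14 near Ddc. There were also 1 of 13 near Vmat, 2 of 10 near SerT and 2 of 11 near DAT. None changed by a log2 fold change of 1 or more. Of the pan-neuronal markers, fne, an RNA-binding protein of the Elav family, rose from 278 ± 14.2 to 326 ± 8.73 CPM (SD, n = 3 each; log2 fold change 0.23, adjusted p 0.00657, edgeR), and Rbp9, of the same family, fell from 474 ± 17.2 to 384 ± 17.9 CPM (log2 fold change -0.30, adjusted p 0.00132, edgeR). elav itself stood at 169 ± 7.88 and 176 ± 8.37 CPM (adjusted p 0.526, edgeR). Of the glial markers, wrapper, a surface protein of midline and wrapping glia, rose from 15.5 ± 1.44 to 21.6 ± 0.503 CPM (log2 fold change 0.48, adjusted p 0.00218, edgeR). Hdc, histidine decarboxylase, which makes the transmitter of the photoreceptors, was among the 16 photoreceptor markers that fell. Fat body markers summed to 6241 to 6835 CPM in wDah and 6577 to 7002 CPM in miR-210Δ, with 2 of 11 higher and 0 lower. Hemocyte markers summed to 2423 to 2594 CPM in wDah and 2202 to 2241 CPM in miR-210Δ, with 1 of 6 higher and 3 lower. Over all genes the shares were 3.97% higher and 6.12% lower.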
